A study of Rattus norvegicus with 939 samples.

Results

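Idarubicin was given to primary rat hepatocytes for 2 lengths of time, and its effect after 1 d was set against its effect after 0.67 d, gene by gene. The arrays were chosen by their labels alone. They were the treated arrays whose compound is Idarubicin, at 1.5 uM, and the vehicle control arrays whose description names Idarubicin, 24 of the 939 arrays in the series. The series exposed cultured rat hepatocytes to many toxicants and measured poly(A) RNA on Affymetrix arrays at these times. The 4 groups were hepatocytes with 1.5 uM idarubicin for 1 d (3 arrays), vehicle controls at 1 d (9 arrays), hepatocytes with 1.5 uM idarubicin for 0.67 d (3 arrays) and vehicle controls at 0.67 d (9 arrays). All 24 arrays carry DMSO as vehicle, and the controls received no compound. The titles of the controls carry a day code, read here as the day of culture, and each of the 9 codes marks 1 control at 1 d and 1 at 0.67 d. The strain and age of the animals, and whether the idarubicin arrays of a group came from separate cultures, are not given in the sources used here, so every p-value measures only the spread between these arrays, which for idarubicin may be technical.

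Idarubicin is an anthracycline used against leukaemia. It slides between the bases of DNA and holds topoisomerase II on the DNA it has cut, which leaves double-strand breaks, and anthracyclines also displace histones. Breaks activate the kinase ATM and stabilize the transcription factor p53, which switches on genes for cell cycle arrest, DNA repair and apoptosis, among them the gene of its own inhibitor Mdm2. Hepatocytes hardly divide in culture, and their carbonyl reductases convert anthracyclines to alcohols.

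All values are log2 expression levels, and an effect is the mean of the idarubicin arrays minus the mean of the vehicle controls of the same time. The difference of effects is the effect at 1 d minus the effect at 0.67 d, so a negative difference means a lower effect at 1 d. For the idarubicin arrays the 3 values of a gene are given in the order of hybridization day, which was day 3, 10 and 15 at 1 d and day 2, 4 and 5 at 0.67 d. The array in the middle is replicate 2 at both times, and the other two both carry the number 1. For the 9 controls the range and the median are given. A gene was called where limma, adjusted over all 14218 genes, gave p = 0.01 or below and the fold was at least 1.5, which for the difference means a ratio of folds of 1.5 or more.

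Hepatocyte markers were bright in all groups, at the median percentile 98.9 of all genes in controls. Their mean log2 level was 12.14 to 12.44 with idarubicin and 11.97 to 12.15 in controls at 1 d, and 12.34 to 12.48 with idarubicin and 12.17 to 12.28 in controls at 0.67 d. Other cell types left weaker traces. The mean level of 11 endothelial markers was 4.52 to 4.71 with idarubicin against 4.74 to 5.64 in controls at 1 d, and 4.66 to 4.67 with idarubicin against 4.81 to 5.86 in controls at 0.67 d, so the groups did not overlap at either time. In bulk RNA, fewer cells of a type and less RNA per cell cannot be told apart. The 14 stellate cell and fibroblast markers had 4.76 to 5.19 with idarubicin and 5.04 to 6.17 in controls at 1 d, and 4.94 to 5.21 with idarubicin and 5.06 to 6.02 in controls at 0.67 d. The 11 Kupffer cell markers had 5.77 to 6.04 with idarubicin and 5.83 to 6.62 in controls at 1 d, and 5.94 to 6.02 with idarubicin and 5.76 to 6.56 in controls at 0.67 d, with overlap at both times. The 7 cholangiocyte markers reached higher with idarubicin than in controls, also with overlap at both times. Their levels were 5.43 to 5.84 with idarubicin and 5.06 to 5.68 in controls at 1 d. At 0.67 d they were 5.32 to 5.72 with idarubicin and 5.01 to 5.47 in controls.

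A set of 4 arrays stood apart from their groups. On the first 2 principal components, with 44.6% and 14.4% of the variance, idarubicin replicate 2 at both times lay away from the other idarubicin arrays, and the 2 controls of culture day 19 lay away from the other controls in the same direction. Effects were therefore also computed without these 4 arrays. The counts of genes then were 1230 at 1 d, 1628 at 0.67 d and 27 for the difference, against 1354, 1909 and 25 with all arrays, and 15 of the 25 were called both ways.

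**Figure D1:**
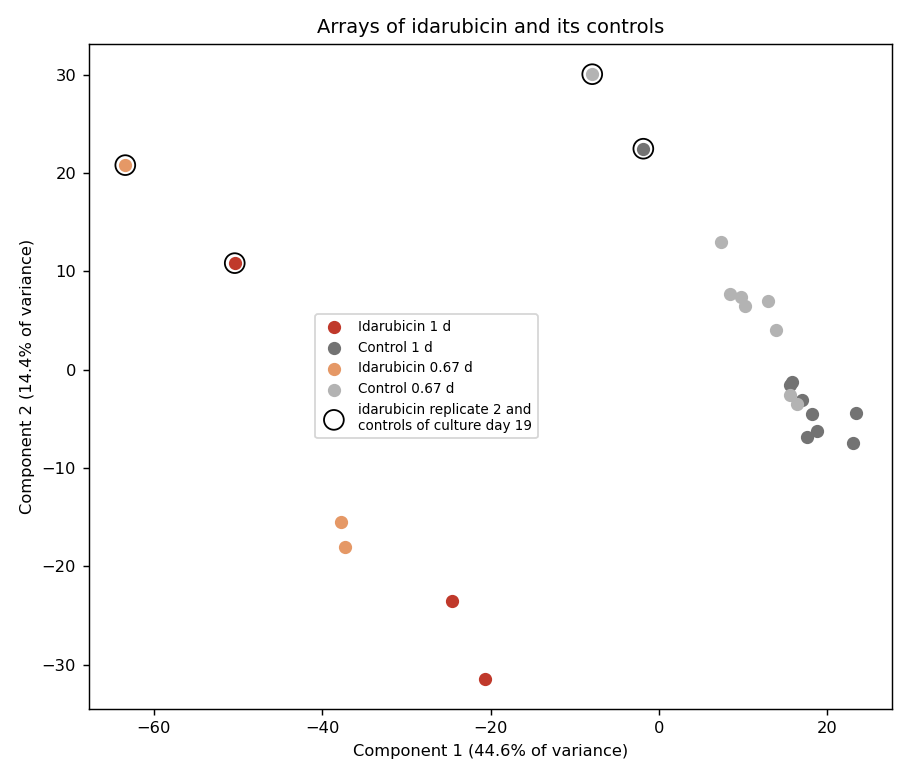
Scores of the 24 arrays on the first (x axis, 44.6% of variance) and second (y axis, 14.4% of variance) principal component of the 14218 genes, with circles around idarubicin replicate 2 and the controls of culture day 19. The 6 idarubicin arrays lie left of all controls, and the 4 circled arrays lie above the other arrays of their group.

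Idarubicin changed many genes at both times, and most of them in the same way. At 1 d, 582 genes were higher (4.09% of the genes tested) and 772 lower (5.43%) with idarubicin than in controls. At 0.67 d, 912 were higher (6.41%) and 997 lower (7.01%). Of the genes called, 1004 were called at both times, 461 higher and 543 lower, and 0 in opposite directions. These were 74.15% of the genes called at 1 d and 52.59% of those called at 0.67 d. A further 350 were called only at 1 d, of which 348 had the same sign at 0.67 d, and 905 only at 0.67 d, of which 877 had the same sign at 1 d. Only 1 of the 350 and 17 of the 905 had a called difference between the times. The effects at both times had a correlation of 0.87 across genes, which are not independent replicates. The control arrays of each time were different arrays, but they came from the same 9 culture days. Residuals of controls of the same culture day correlated at 0.339 to 0.857. Idarubicin arrays with equal replicate numbers had residual correlations of 0.255 to 0.748. The part of such shared noise in the 0.87 was not tested. With the median of each array subtracted, 731 genes were called higher and 675 lower at 1 d, and 1127 higher and 795 lower at 0.67 d. That scaling moved the median effect of all genes by 0.04 at 1 d and 0.07 at 0.67 d on the log2 scale.

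**Figure D2:**
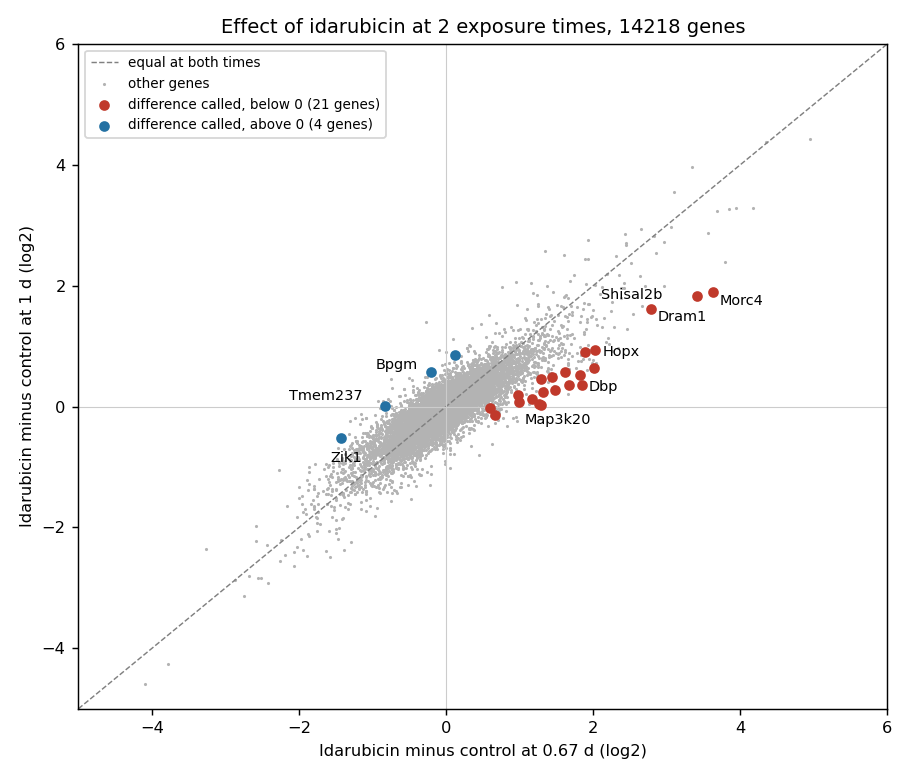
Log2 effect of idarubicin at 0.67 d (x axis) and at 1 d (y axis) for 14218 genes, with the 25 genes whose effects differed in color. The 21 genes with a lower effect at 1 d lie below the diagonal and the 4 with a higher effect above it.

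The genes with the largest effects were high at both times. Cdkn1c, an inhibitor of cyclin-dependent kinases that is expressed from the maternal allele, had values of 8.68, 8.94 and 8.90 with idarubicin against 3.97 to 4.57 (median 4.49) in controls at 1 d, and 9.28, 8.99 and 9.56 with idarubicin against 4.14 to 4.55 (median 4.33) in controls at 0.67 d. Every idarubicin array lay far above every control, and the effect was 21.4-fold at 1 d and 30.8-fold at 0.67 d, a difference of -0.52 (SE 0.17, limma adjusted p = 0.207) that was not called. Slc4a11, a plasma membrane transporter, rose 20.9-fold at 1 d and 20.4-fold at 0.67 d, with a difference of 0.04 (SE 0.20, limma adjusted p = 0.987). Ltk, a receptor tyrosine kinase related to ALK, rose by a log2 effect of 3.29 at 1 d and 4.17 at 0.67 d. Slc27a3, a fatty acid transport protein, rose 9.69-fold and 14.4-fold at 1 d and 0.67 d. Rprm, the p53-induced inhibitor of G2 progression Reprimo, rose 5.23-fold at 1 d and 13.9-fold at 0.67 d, and its difference of -1.41 (SE 0.30, limma adjusted p = 0.0289) missed the bound on adjusted p.

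The deepest falls were those of Acta1 and Tagln at both times. Acta1, skeletal muscle actin, had values of 8.79, 4.77 and 7.60 with idarubicin against 10.36 to 12.54 (median 11.73) in controls at 1 d, and 8.22, 5.40 and 7.36 with idarubicin against 9.73 to 12.38 (median 11.10) in controls at 0.67 d. The idarubicin arrays lay below every control, and replicate 2 lay lowest at both times. The effect was -4.58 at 1 d and -4.10 at 0.67 d, with a difference of -0.49 (SE 0.90, limma adjusted p = 0.954). Without the 4 arrays that stood apart it was -3.60 at 1 d and -3.39 at 0.67 d. Tagln, an actin-binding protein of smooth muscle, fell in the same pattern, with -4.26 at 1 d and -3.79 at 0.67 d. Esm1, a proteoglycan secreted by endothelial cells, had an effect of -3.13 at 1 d and -2.75 at 0.67 d, the fatty acid-binding protein Fabp4 of -2.87 at 1 d and -2.86 at 0.67 d and the hyaluronan receptor Lyve1 of -2.80 at 1 d and -2.68 at 0.67 d. Lyve1 is itself one of the endothelial markers whose mean levels are given above, and the part of the makeup of the cultures in these falls was not tested. Cyp26b1, which degrades retinoic acid, had -2.35 at 1 d and -3.26 at 0.67 d, called at 0.67 d only.

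Between the times, 25 genes differed in their idarubicin effect. The difference was below 0 for 21 of them (0.148% of the genes tested) and above 0 for 4 (0.0281%). Of the 25, 20 had an effect nearer to 0 at 1 d, 4 had effects of opposite sign at the 2 times, and 1 had an effect farther from 0 at 1 d. At 1 d 7 of them were called and at 0.67 d 23, 6 at both times. All 21 genes with a negative difference were higher with idarubicin at 0.67 d. For each of them every idarubicin array at 1 d lay below every idarubicin array at 0.67 d, and for the 4 others every 1 d array lay above, as was the case for 6.34% and 5.3% of all genes. The 25 genes were called on these same arrays, so the separation follows largely from their choice and is a description. At 1 d the idarubicin and control arrays overlapped for 14 of the 25 genes, at 0.67 d for 2. The share of all genes with such an overlap was not computed, and the choice of the genes by their difference bears on both counts. At an adjusted p of 0.05 or less and any fold, 87 genes differed (0.612%), 69 below 0 and 18 above 0, and 79 of the 87 had a smaller absolute effect at 1 d. The median standard error of a difference was 0.17 log2, so that its unadjusted 95% interval reached 0.35 to either side. A call needed more than that, and of simulated 1.5-fold differences 16% were recovered. Differences above 0.35 can therefore also have gone uncalled. Leaving out replicate 1 of hybridization day 3 or of day 15 at 1 d left 7 and 8 calls, leaving out replicate 2 left 40 at 1 d and 16 at 0.67 d.

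Among the genes with an effect averaged over the times, smaller effects at 1 d were more frequent on the higher side. When the effect was averaged over both times, 840 genes were higher with idarubicin (5.91%) and 1000 lower (7.03%). Of the 840 higher genes, 75.8% had a smaller effect at 1 d, with a median effect of 0.77 at 1 d and 0.98 at 0.67 d. Of the 1000 lower genes, 56.7% had a smaller effect at 1 d, with a median effect of -0.80 at 1 d and -0.88 at 0.67 d. Over all genes the difference was below 0 for 52.2%, with a median of -0.01. The contrast between higher and lower genes was not tested.

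Among the 25 genes the largest difference was that of Morc4 (probe set 1390915_at), a member of the MORC family of ATPases that bind chromatin. Its probe set had 7.13, 8.02 and 8.30 with idarubicin against 5.76 to 6.13 (median 5.93) in controls at 1 d, and 9.86, 9.53 and 9.34 with idarubicin against 5.70 to 6.26 (median 5.94) in controls at 0.67 d. The groups with idarubicin lay above their controls without overlap, and the 1 d arrays were lower than the 0.67 d arrays. The effect was 3.70-fold at 1 d and 12.3-fold at 0.67 d, and the difference was -1.74 (SE 0.24, limma adjusted p = 7.57e-04). Shisal2b (probe set 1384564_at) had 4.38, 6.07 and 5.18 with idarubicin against 3.19 to 3.48 (median 3.37) in controls at 1 d, and 6.24, 7.30 and 6.78 with idarubicin against 3.23 to 3.56 (median 3.35) in controls at 0.67 d. Replicate 2 was the highest array at both times, and the difference of -1.57 (SE 0.29, limma adjusted p = 0.00847) was called in 4 of the 24 fits that leave out an array.

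Dram1 (probe set 1389732_at), a lysosomal membrane protein that p53 induces in human cells and that takes part in autophagy, had 8.59, 8.61 and 8.77 with idarubicin against 6.89 to 7.23 (median 7.05) in controls at 1 d, and 10.24, 9.65 and 9.66 with idarubicin against 6.74 to 7.52 (median 7.03) in controls at 0.67 d. All idarubicin arrays lay above all controls. The effect was 1.62 (SE 0.14) at 1 d and 2.78 (SE 0.14) at 0.67 d, and the difference -1.16 (SE 0.19, limma adjusted p = 0.00338). Hopx (probe set 1367816_at), a small homeodomain protein that binds no DNA itself, had 4.36, 4.74 and 4.86 with idarubicin against 3.45 to 3.85 (median 3.72) in controls at 1 d, and 5.64, 5.53 and 5.39 with idarubicin against 3.27 to 3.78 (median 3.46) in controls at 0.67 d. It was raised at both times, with an effect of 0.93 (SE 0.10) at 1 d and 2.03 (SE 0.10) at 0.67 d and a difference of -1.10 (SE 0.15, limma adjusted p = 7.57e-04). Mxd1, a partner of MAX that opposes MYC, had an effect of 0.91 at 1 d and 1.90 at 0.67 d, with a difference of -0.99 (SE 0.16, limma adjusted p = 0.00328). Slc25a29, a mitochondrial carrier of basic amino acids, had an effect of 0.65 at 1 d and 2.01 at 0.67 d, with a difference of -1.36 (SE 0.24, limma adjusted p = 0.00674). Morc4, Shisal2b, Dram1, Hopx, Mxd1 and Slc25a29 were the 6 genes called at both times.

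For other genes the idarubicin and control arrays overlapped at 1 d. Map3k20 (probe set 1372606_at), the kinase ZAK that signals from stalled ribosomes to p38 and JNK, had 9.02, 9.24 and 9.27 with idarubicin against 8.83 to 9.26 (median 9.07) in controls at 1 d, and 10.30, 9.88 and 10.03 with idarubicin against 8.70 to 9.12 (median 8.85) in controls at 0.67 d. Its effect was 0.13 (SE 0.10) at 1 d and 1.17 (SE 0.10) at 0.67 d, with a difference of -1.04 (SE 0.14, limma adjusted p = 7.57e-04). Map3k20 has 3 probe sets, and with their median the difference was -0.42 (limma adjusted p = 0.656), not called. Tyro3, a receptor tyrosine kinase for Gas6 and protein S, had 6.12, 6.71 and 6.36 with idarubicin against 5.92 to 6.74 (median 6.40) in controls at 1 d, and 7.46, 7.63 and 7.56 with idarubicin against 5.91 to 6.47 (median 6.34) in controls at 0.67 d. The 3 idarubicin arrays at 1 d lay within the range of the controls, and the difference was -1.27 (SE 0.20, limma adjusted p = 0.0032). Pard6g, a cell polarity adaptor of the PAR complex, had an effect of 0.04 at 1 d and 1.26 at 0.67 d. Its arrays at 1 d were 5.27, 5.50 and 5.09 with idarubicin against 4.91 to 5.75 (median 5.20) in controls, again within the controls' range, and its difference was -1.22 (SE 0.19, limma adjusted p = 0.0032). Grhl3, a transcription factor of epithelial barriers, had 4.21, 4.03 and 4.80 with idarubicin against 3.87 to 4.19 (median 3.96) in controls at 1 d, and 5.58, 5.12 and 5.79 with idarubicin against 3.64 to 4.03 (median 3.81) in controls at 0.67 d. At 1 d 2 of the 3 idarubicin arrays lay above all controls of that time, and the difference was -1.32 (SE 0.18, limma adjusted p = 7.57e-04).

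Rfng, a fringe glycosyltransferase that acts on Notch receptors, had 7.69, 7.56 and 7.67 with idarubicin against 7.67 to 7.90 (median 7.77) in controls at 1 d, and 8.08, 8.43 and 8.30 with idarubicin against 7.31 to 7.73 (median 7.62) in controls at 0.67 d. Its 0.67 d idarubicin arrays lay above all controls, and its difference was -0.81 (SE 0.12, limma adjusted p = 0.00135). Poglut1, an O-glucosyltransferase, had an effect of -0.03 at 1 d and 0.60 at 0.67 d, and the called difference of least size, -0.63 (SE 0.11, limma adjusted p = 0.00422). Itpka, which phosphorylates inositol trisphosphate, had an effect of 0.52 at 1 d and 1.82 at 0.67 d, and Naif1, a nuclear protein that can induce apoptosis, had 0.27 at 1 d and 1.48 at 0.67 d. Celf4, an RNA-binding splicing regulator, had 0.07 at 1 d and 1.00 at 0.67 d, and the fibrillar collagen gene Col27a1 had 0.24 at 1 d and 1.32 at 0.67 d. Nxn, a thioredoxin-like protein of the nucleus, had 0.19 at 1 d and 0.98 at 0.67 d, Acbd4, which binds acyl-CoA, had 0.57 at 1 d and 1.61 at 0.67 d, and the Ras-association protein Rassf7 had 0.49 at 1 d and 1.44 at 0.67 d. Tbc1d8, of the family that switches off Rab GTPases, had 0.45 at 1 d and 1.29 at 0.67 d, and with the median over its probe sets its difference was -0.00867. With the same median the differences of Acbd4 (-0.65), Nxn (-0.48) and Rfng (-0.75) were not called by limma either, with adjusted p between 0.0188 and 0.0417. The differences of these 8 genes ran between -1.31 and -0.79, and 5 of the 25 genes, Morc4, Hopx, Map3k20, Grhl3 and Rfng, were called in all 24 fits that leave out an array.

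**Figure D3:**
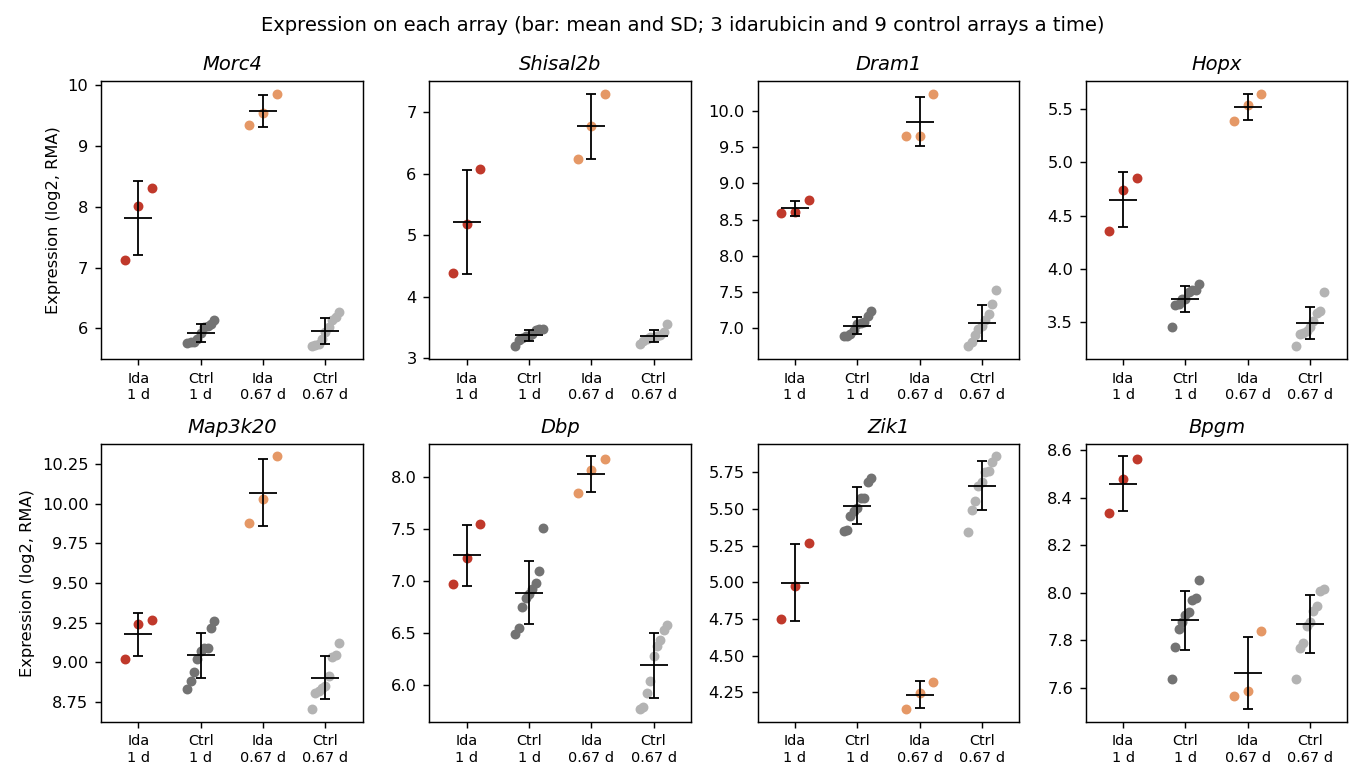
Log2 level of 8 genes on each array (points) with the mean and SD of each group (line and bar), in the order idarubicin 1 d, control 1 d, idarubicin 0.67 d and control 0.67 d. Morc4, Shisal2b, Dram1 and Hopx stayed above the controls at 1 d, the idarubicin arrays of Map3k20 overlapped them, and for Dbp the idarubicin arrays were lower and the controls higher at 1 d than at 0.67 d.

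For the clock gene Dbp the controls of 1 d lay mostly above those of 0.67 d. Dbp (probe set 1387874_at), a transcription factor whose level follows the circadian clock, had 7.55, 7.22 and 6.97 with idarubicin against 6.49 to 7.51 (median 6.87) in controls at 1 d, and 8.18, 7.85 and 8.07 with idarubicin against 5.77 to 6.58 (median 6.28) in controls at 0.67 d. The controls differed by 0.70 (1 d minus 0.67 d, limma adjusted p = 0.0535, not called in the fit without culture day) and the idarubicin arrays by -0.78 in mean level, and the idarubicin and control ranges overlapped at 1 d. The effect was 0.36 (SE 0.19) at 1 d and 1.84 (SE 0.19) at 0.67 d, and the difference was -1.48 (SE 0.26, limma adjusted p = 0.00642), called in 13 of 24 fits that leave out an array. The part of the controls' own change in this difference was not tested. Of 17 clock genes measured, 1 was called higher and 2 lower at 1 d, 4 higher and 3 lower at 0.67 d, and Dbp was the only one whose effects differed. Against 4.09% higher and 5.43% lower at 1 d, and 6.41% higher and 7.01% lower at 0.67 d over all genes, the 1 d counts were near the background. Their median effects were 0.09 at 1 d and 0.05 at 0.67 d. Nr1d1, the repressor Rev-erb alpha, had 7.76, 8.97 and 7.33 with idarubicin against 7.01 to 7.71 (median 7.21) in controls at 1 d, and 8.29, 9.44 and 7.94 with idarubicin against 5.86 to 7.41 (median 6.51) in controls at 0.67 d, with a difference of -1.32 (SE 0.44, limma adjusted p = 0.222) that was not called. Among the controls alone, 1 gene differed between 1 d and 0.67 d (0.00703% of the genes tested), the clock repressor Cry1, with 6.70 to 7.82 (median 7.19) at 1 d against 7.91 to 8.47 (median 8.04) at 0.67 d and a difference of -0.91 (SE 0.13, limma adjusted p = 0.00518). With idarubicin Cry1 had 6.59, 7.43 and 7.28 at 1 d and 7.24, 7.94 and 7.49 at 0.67 d. The call of Cry1 was lost without any 1 of 13 of the 18 controls. These values come from a fit that does not use the culture day. The 9 pairs of controls of the same culture day had residual correlations of 0.339 to 0.857, and with culture day as a random effect 17 genes differed between the control times (3155 at an unadjusted p under 0.05, against 1260 without it). Cry1 was among them (limma adjusted p = 1.02e-05), as was Dbp (limma adjusted p = 0.00178), while the difference of idarubicin effects of Dbp then had a limma adjusted p of 0.0107 and was not called.

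The 4 genes with a positive difference were Zik1, Bpgm, Ftx and Tmem237. Zik1 (probe set 1390425_at), a zinc finger gene, had 4.98, 4.75 and 5.27 with idarubicin against 5.35 to 5.71 (median 5.51) in controls at 1 d, and 4.24, 4.32 and 4.14 with idarubicin against 5.34 to 5.86 (median 5.68) in controls at 0.67 d. All idarubicin arrays lay below the controls at both times, nearer to them at 1 d, and the difference was 0.90 (SE 0.15, limma adjusted p = 0.00383). Bpgm (probe set 1388544_at), the mutase that makes 2,3-bisphosphoglycerate, had 8.33, 8.56 and 8.48 with idarubicin against 7.64 to 8.05 (median 7.91) in controls at 1 d, and 7.84, 7.59 and 7.56 with idarubicin against 7.64 to 8.02 (median 7.87) in controls at 0.67 d. It was above all controls at 1 d only, with a difference of 0.78 (SE 0.13, limma adjusted p = 0.00324). Ftx, a long noncoding RNA of the X inactivation centre, had 0.85 at 1 d and 0.13 at 0.67 d and a difference of 0.73 (SE 0.14, limma adjusted p = 0.0097). Tmem237, a protein of the base of cilia, had 0.00 at 1 d and -0.83 at 0.67 d and a difference of 0.84 (SE 0.16, limma adjusted p = 0.0099). Ftx and Tmem237 were called in 5 and 3 of the 24 fits that leave out an array, and Tmem237 had a difference of -0.07 with the median over its probe sets.

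A further 14 genes had a positive difference with a limma adjusted p between 0.0249 and 0.0494 and were not called. They included Sf3b3 and Rbm25 of the spliceosome, with -0.14 at 1 d and -0.68 at 0.67 d and 0.21 at 1 d and -0.33 at 0.67 d, and the splicing kinase Prpf4b with -0.31 at 1 d and -0.88 at 0.67 d. Med23, of the Mediator complex, had -0.18 at 1 d and -1.09 at 0.67 d, and Smarcc1, of the SWI/SNF chromatin remodelling complex, had -0.95 at 1 d and -1.63 at 0.67 d. The helicase Dhx32, the nucleolar GTPase Gnl3l and the ciliary protein Tmem67 had -0.71 at 1 d and -1.39 at 0.67 d, -0.43 at 1 d and -1.10 at 0.67 d and -0.19 at 1 d and -1.24 at 0.67 d. Dph6 had -0.11 at 1 d and -0.82 at 0.67 d, and Exog, a mitochondrial nuclease, had 0.05 at 1 d and -0.44 at 0.67 d. The effect at 0.67 d was below 0 in 13 of the 14, the exception being Gnat2, the transducin of cone cells, with 0.83 at 1 d and 0.21 at 0.67 d.

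Many genes that p53 induces were higher with idarubicin at both times, though not all of the list. Of 37 measured genes of the p53 list, 19 were called higher and 2 lower at 1 d, and 20 higher and 1 lower at 0.67 d, 19 of them higher at both times, and 0 differed between the times (7 had an unadjusted p under 0.05 in limma). Their median effect was 0.60 at 1 d and 0.76 at 0.67 d, and the median difference -0.13, against -0.01 over all genes. The shares of all genes were 4.09% higher and 5.43% lower at 1 d, and 6.41% higher and 7.01% lower at 0.67 d. The lower counts of the list were near or below that background. Without the 4 arrays that stood apart 17 genes of the list were called higher at 1 d and 20 at 0.67 d, and Pidd1 differed. Dram1, whose difference between the times was called, is not on this list. Rprm and Gls2, also described here as genes that p53 can induce, are not on it either. Their differences were below 0 and not called. Cdkn1a, the cell cycle inhibitor p21, had 12.43, 11.94 and 12.19 with idarubicin against 9.69 to 10.58 (median 10.44) in controls at 1 d, and 12.31, 11.11 and 12.34 with idarubicin against 9.88 to 10.92 (median 10.59) in controls at 0.67 d. All idarubicin arrays lay above all controls, and the difference was 0.44 (SE 0.33, limma adjusted p = 0.777). Mdm2, the ubiquitin ligase that degrades p53, had an effect of 1.20 at 1 d and 1.14 at 0.67 d. Apoptosis genes of the list rose as well, Bbc3 (PUMA) with 1.03 at 1 d and 1.33 at 0.67 d, Fas with 0.60 at 1 d and 1.01 at 0.67 d, Aen with 1.09 at 1 d and 1.12 at 0.67 d and Perp with 1.40 at 1 d and 1.20 at 0.67 d. Gdf15, a secreted stress cytokine, had 1.97 at 1 d and 2.43 at 0.67 d, and Sesn2, an inhibitor of mTORC1, had 1.13 at 1 d and 1.28 at 0.67 d. Pidd1, the scaffold of the PIDDosome, came nearest to a call, with 6.74, 7.36 and 7.06 with idarubicin against 6.04 to 6.83 (median 6.19) in controls at 1 d, and 8.00, 8.53 and 8.09 with idarubicin against 5.84 to 6.77 (median 6.37) in controls at 0.67 d. Its difference was -1.16 (SE 0.25, limma adjusted p = 0.0275). The nucleotide excision repair gene Xpc was called lower at 0.67 d and not called at 1 d, with -0.13 at 1 d and -0.62 at 0.67 d, and Apaf1 of the apoptosome was called lower at 1 d only, with -0.72 at 1 d and -0.28 at 0.67 d.

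**Figure D4:**
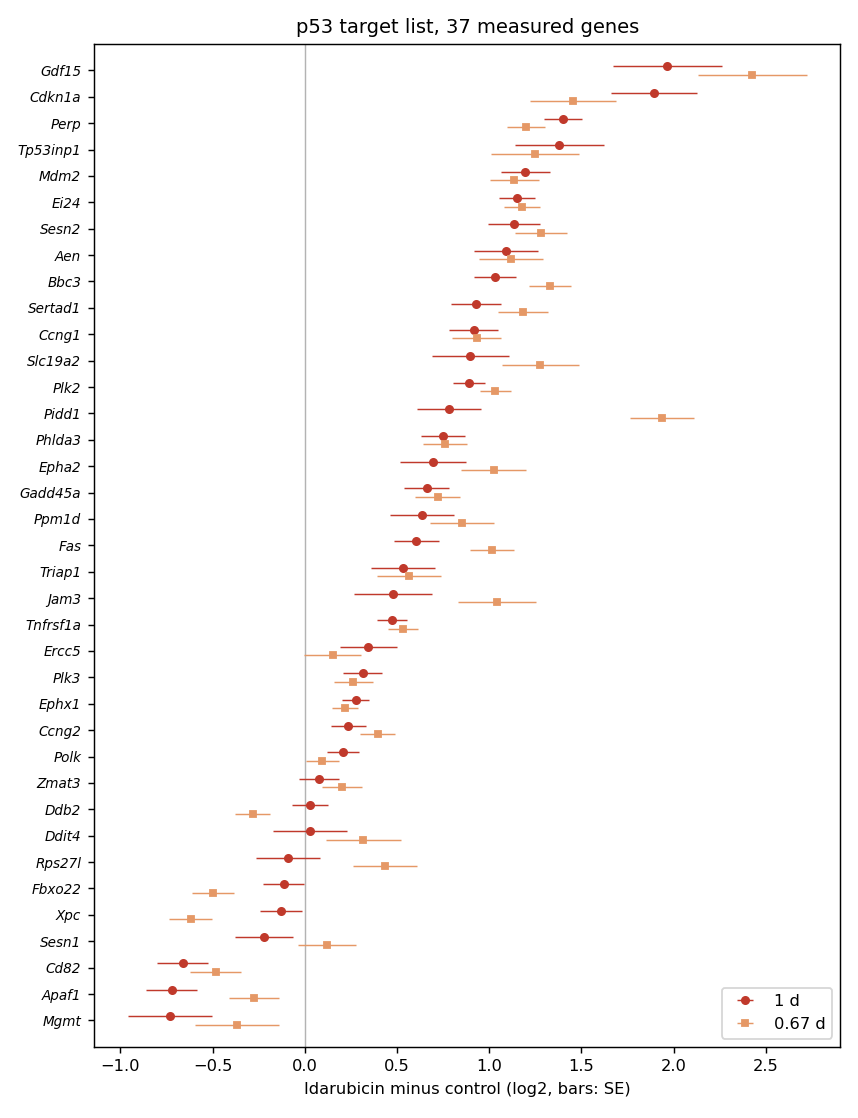
Idarubicin effect (log2, point with SE) at 1 d and at 0.67 d for the 37 measured genes of the p53 list. Most points lie above 0 at both times, and Pidd1 has the largest distance between its points, 0.78 at 1 d and 1.94 at 0.67 d.

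Interferon-induced genes were the list with the highest median difference. Of 19 measured genes, 8 were called higher at 1 d and 6 at 0.67 d, all 6 also at 1 d, and 0 lower at either time. The shares of all genes were 4.09% higher and 5.43% lower at 1 d, and 6.41% higher and 7.01% lower at 0.67 d. Of the 19 differences 17 were above 0, against 47.8% of all genes, and their median was 0.39, with a median effect of 0.70 at 1 d and 0.24 at 0.67 d. None of these differences was called by limma, and 2 had an unadjusted p under 0.05. Usp18, which removes the ubiquitin-like ISG15, had 10.01, 8.30 and 10.12 with idarubicin against 7.62 to 8.66 (median 8.12) in controls at 1 d, and 9.12, 8.62 and 8.75 with idarubicin against 7.52 to 9.12 (median 8.41) in controls at 0.67 d. Replicate 2 stayed in the range of the controls at both times, while the other 2 idarubicin arrays lay above it at 1 d, and the difference was 0.90 (SE 0.48, limma adjusted p = 0.594). Mx2, a GTPase that blocks viruses, had 9.14, 8.05 and 9.31 with idarubicin against 7.60 to 8.89 (median 8.39) in controls at 1 d, and 8.10, 7.22 and 7.94 with idarubicin against 7.67 to 9.10 (median 8.51) in controls at 0.67 d, with a difference of 1.20 (SE 0.41, limma adjusted p = 0.253). Rsad2 (viperin), an antiviral enzyme, and Gbp4, a guanylate-binding protein, rose at both times, with 3.55 at 1 d and 3.09 at 0.67 d and with 3.96 at 1 d and 3.34 at 0.67 d. The median level of the 19 genes was 0.17 higher in the 1 d than in the 0.67 d idarubicin arrays and 0.06 lower in the controls. Without the 4 arrays that stood apart, the median difference was 0.41 and 19 of 19 lay above 0.

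Immediate early genes, transcribed within minutes of a signal and short-lived, were called higher for 4 and lower for 2 of 30 genes at 1 d, and higher for 9 and lower for 1 at 0.67 d. Over all genes 4.09% were higher and 5.43% lower at 1 d, and 6.41% higher and 7.01% lower at 0.67 d, so the lower counts were near the background. None differed between the times by limma, and 3 had an unadjusted p under 0.05. Egr1 had 9.78, 10.87 and 9.82 with idarubicin against 7.33 to 9.75 (median 8.81) in controls at 1 d, and 11.05, 12.19 and 11.71 with idarubicin against 7.69 to 10.04 (median 8.84) in controls at 0.67 d. It was above every control at both times, with a difference of -1.15 (SE 0.66, limma adjusted p = 0.638). Egr2, of the same zinc finger family, had 0.55 at 1 d and 1.43 at 0.67 d and a difference of -0.88 (SE 0.27, limma adjusted p = 0.173).

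Hepatocyte markers had median effects near 0, and the called genes of fatty acid synthesis were mostly lower. Of 24 hepatocyte markers, 2 were called higher and 0 lower at 1 d, and 0 higher and 1 lower at 0.67 d, with median effects of 0.14 at 1 d and 0.13 at 0.67 d. The shares of all genes were 4.09% higher and 5.43% lower at 1 d, and 6.41% higher and 7.01% lower at 0.67 d. Fatty acid synthesis had 0 of 16 genes higher and 4 lower at 1 d, and 1 higher and 4 lower at 0.67 d, where 5.43% and 7.01% of all genes were lower. The median effects of this list were -0.52 at 1 d and -0.19 at 0.67 d, and 2 of 16 differences were above 0. Fasn, the fatty acid synthase, had 7.65, 8.66 and 8.02 with idarubicin against 8.32 to 9.09 (median 8.89) in controls at 1 d, and 8.39, 9.48 and 8.85 with idarubicin against 8.35 to 9.24 (median 8.96) in controls at 0.67 d. The 1 d idarubicin arrays reached below the controls in 2 of 3 cases, and the difference was -0.66 (SE 0.29, limma adjusted p = 0.457). Gls2, the liver glutaminase that p53 can induce in human cells, had an effect of -0.62 at 1 d and 0.62 at 0.67 d with a difference of -1.25 (SE 0.26, limma adjusted p = 0.026), not called. Cyp8b1, the sterol 12-alpha hydroxylase of bile acid synthesis, had an effect of -0.24 at 1 d and 0.97 at 0.67 d with a difference of -1.21 (SE 0.32, limma adjusted p = 0.0924).

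The actin, SRF and YAP target list had 0 genes higher and 9 of 18 lower at 1 d, and 0 higher and 8 lower at 0.67 d, with median effects of -0.67 at 1 d and -0.54 at 0.67 d. Myl9, a myosin light chain, had -2.03 at 1 d and -1.50 at 0.67 d. The endothelial and stellate cell markers, of which 2 of 11 and 2 of 14 were called lower at 1 d, moved the same way, and their part was not tested. The p53, interferon, immediate early, metabolic and actin lists, and all others of the 39 lists, had 0 called differences in limma with the exception of Dbp of the clock. Ribosome biogenesis and RNA polymerase I had 0 genes higher and 1 of 24 lower at 1 d, and 0 higher and 3 lower at 0.67 d, and Polr1b, a catalytic subunit of the polymerase, had -0.94 at 1 d and -1.38 at 0.67 d. Topoisomerases, a list not confined to the topoisomerase II that anthracyclines hold on DNA, had 0 of 6 called at 1 d and 1 lower at 0.67 d. The 24 double-strand break repair genes had 2 higher and 3 lower at 1 d, and 3 higher and 4 lower at 0.67 d. Over all genes 4.09% were higher and 5.43% lower at 1 d, and 6.41% higher and 7.01% lower at 0.67 d, which leaves the ribosome and topoisomerase counts within about 2 genes of the background. Tdp2, which removes topoisomerase II from cut DNA, had 0.19 at 1 d and -0.33 at 0.67 d with a difference of 0.52 (SE 0.17, limma adjusted p = 0.237).

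**Figure D5:**
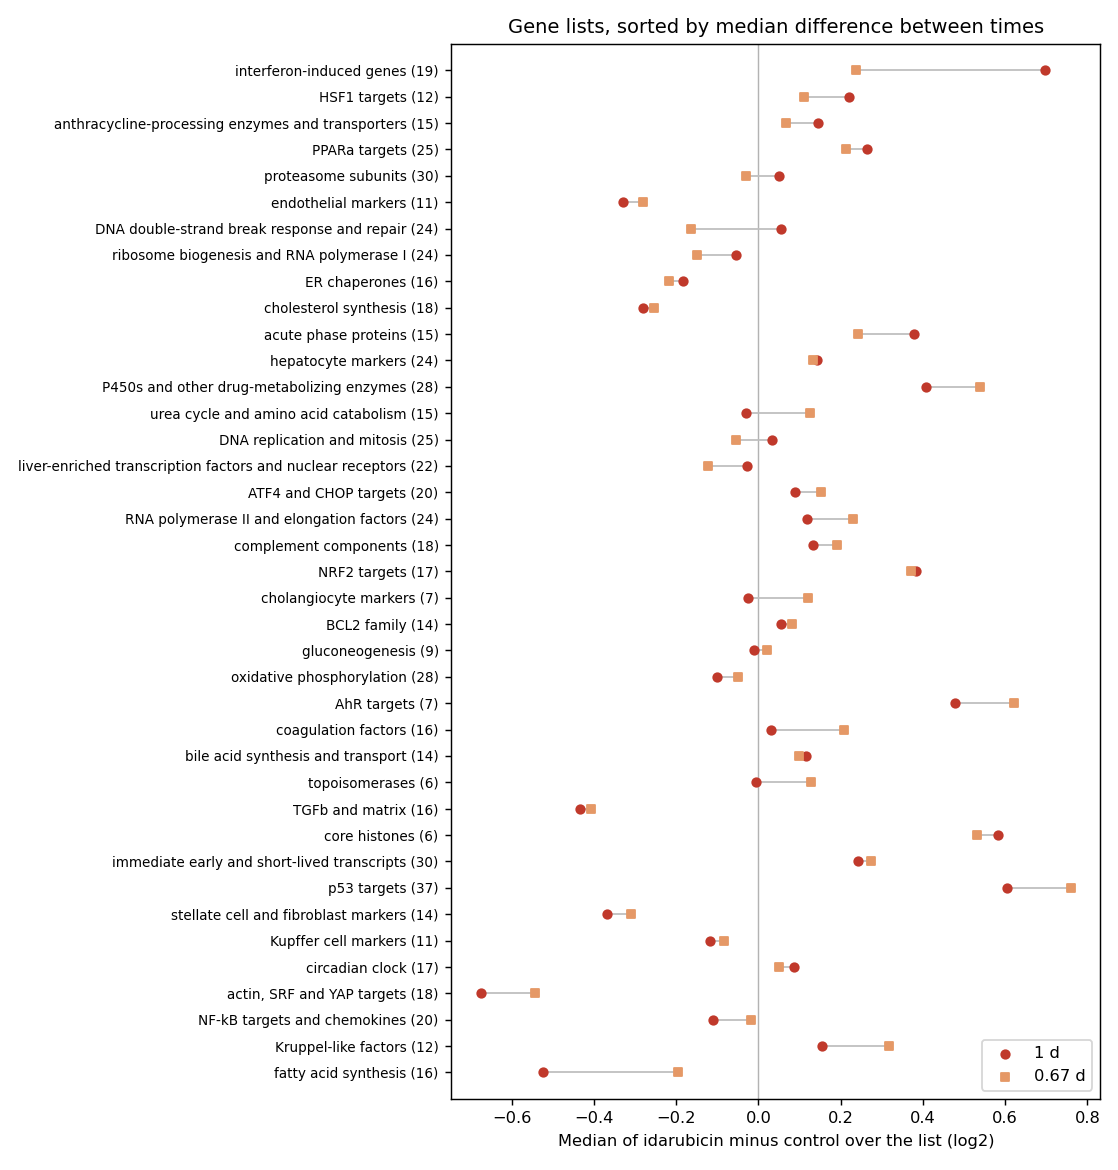
Median idarubicin effect (log2) at 1 d and at 0.67 d for the measured genes of 39 lists, ordered by the median difference. Interferon-induced genes are at one end, with medians of 0.70 at 1 d and 0.24 at 0.67 d, and fatty acid synthesis at the other, with -0.52 and -0.19.

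The share of lower genes grew with the length of the gene at both times. Of genes spanning less than 10 kb in the RefSeq annotation, 3.04% were lower at 1 d and 3.46% at 0.67 d, and of the 428 genes over 300 kb, 16.6% were lower at 1 d and 17.5% at 0.67 d. Of the genes over 300 kb 0 had a called difference, where the share over all genes was 0.148% below 0 and 0.0281% above 0, and the correlation of the difference with span across genes was 0.05 (Spearman, 14162 genes, which are not independent replicates).

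Promoters are shown for Morc4 and Dram1, of which the first had the largest difference of the 25 genes and the second is a p53 target in human cells. The sequences are from RefSeq on the rat assembly GRCr8, 250 bases before to 50 after the annotated start, and the capitals mark matches to the letters CNNGNNNNNNCNNG, a loose p53-type core searched on both strands. The stretch shown for Dram1 lies inside the annotated span of the gene, chr7:24630233-24665270, so its start is not the outermost one. Both promoters are on the minus strand, Morc4 at chrX:108317562-108317861 and Dram1 at chr7:24664177-24664476, and each holds 4 matches, one pair of which overlaps in Dram1.
Morc4: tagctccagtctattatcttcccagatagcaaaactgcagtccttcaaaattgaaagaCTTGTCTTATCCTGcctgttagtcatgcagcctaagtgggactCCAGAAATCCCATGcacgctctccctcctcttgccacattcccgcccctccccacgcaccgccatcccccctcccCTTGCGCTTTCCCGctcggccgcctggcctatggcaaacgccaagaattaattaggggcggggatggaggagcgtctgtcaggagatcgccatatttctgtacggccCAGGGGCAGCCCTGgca
Dram1: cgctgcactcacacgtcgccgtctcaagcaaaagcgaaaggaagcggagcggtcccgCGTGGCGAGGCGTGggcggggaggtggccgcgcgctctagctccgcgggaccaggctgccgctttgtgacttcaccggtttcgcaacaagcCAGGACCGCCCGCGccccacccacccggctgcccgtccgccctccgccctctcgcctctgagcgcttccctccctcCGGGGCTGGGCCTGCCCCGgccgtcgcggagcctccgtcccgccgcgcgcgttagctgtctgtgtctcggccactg
Of 23 called genes with a promoter in the table, 19 held the core, against 81.0% of the 13243 promoters of tested genes and 67.5% of all 33469 promoters. The E-box CACGTG, which clock transcription factors bind, was in 2 of the 23, against 8.62% of the promoters of tested genes. These matches are descriptions of letters and not of binding.

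Doxorubicin and daunorubicin were tested in the same series at the same dose of 1.5 uM and the same times. Idarubicin is daunorubicin without the methoxy group of its ring system, and doxorubicin is daunorubicin with an added hydroxyl on the side chain. Their control arrays overlap with those of idarubicin, so the values are given side by side. In a fit of the 36 arrays of all 3 compounds, doxorubicin called 17 genes at 1 d (0.12%) and 96 at 0.67 d (0.675%), and daunorubicin 22 at 1 d (0.155%) and 127 at 0.67 d (0.893%), either direction counted. The effect at 1 d differed from that at 0.67 d for 0 genes in doxorubicin (0.0%) and 0 in daunorubicin (0.0%) by limma, where 464 and 259 genes had an unadjusted p under 0.05. For the 21 genes with a negative difference in idarubicin, whose median was -1.10, the difference in doxorubicin had a median of -0.34 and ran between -1.37 and -0.01, and that in daunorubicin had a median of -0.33 and ran between -1.71 and 0.43. The 21 genes were chosen for their idarubicin difference on these arrays, which by itself favours medians nearer 0 in the other compounds. Dbp had -1.48 in idarubicin, -1.37 in doxorubicin and -1.71 in daunorubicin.

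The difference between the compounds was tested for 2 pairs. The change of effect with time differed from that in doxorubicin for 0 genes (0.0%, with 393 at an unadjusted p under 0.05 in limma) and from that in daunorubicin for 1 gene (0.00703%, p adjusted over the 14218 genes of each pair). The gene was Pard6g, with a difference of -1.22 in idarubicin and 0.43 in daunorubicin, so that the compounds differed by -1.66 (SE 0.25, limma adjusted p = 0.00375). The call was lost in 8 of the fits that leave out an array, 3 without an idarubicin array and 5 without a daunorubicin array. For the other genes the unadjusted 95% interval of such a difference reached 0.44 to either side for doxorubicin and 0.43 for daunorubicin in the median gene. Larger differences also went uncalled, such as -1.11 (SE 0.36) for Morc4 between idarubicin and doxorubicin. The counts of 0 and 1 therefore do not show that the compounds were alike. For Morc4 the difference was -1.74 in idarubicin, -0.63 in doxorubicin and -1.40 in daunorubicin, and the effects with time were 1.89, 0.38 and 0.47 at 1 d and 3.63, 1.00 and 1.86 at 0.67 d. For Dram1 they were 1.62, 0.78 and 0.88 at 1 d and 2.78, 1.62 and 1.68 at 0.67 d.

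The count of called differences changed with the controls used and with the term for hybridization day. With the 4 culture days of controls that also name Doxorubicin, or the 5 that also name Daunorubicin, 0 genes were called (966 and 894 at an unadjusted p under 0.05 in limma), and with hybridization day as a fixed block 0 (1370). In those 3 settings the 21 genes had a median difference of -1.14, -1.12 and -1.16 and the 4 others of 0.85, 0.82 and 0.79. Each 1 d idarubicin array was hybridized on its own day, 2 of the 3 after the last 0.67 d idarubicin array. Extraction day 1 holds 1 array of each group, and from these 4 arrays alone the 21 genes had a median of -1.26 and the 4 others of 0.38. These 4 arrays, 1 a group, were among those from which the 25 genes were called, so the values are a description.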

How the data were processed

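The values were the log2 expression levels deposited by the authors for 31099 probe sets on Affymetrix rat arrays. The submitters' notes name RMA without a version, and the methods of the study name its frozen form. Background correction and quantile normalization of this kind set all arrays to a common distribution, so a shift of most genes in 1 direction would not be seen. Medians of the 24 arrays lay between 5.54 and 5.61 over all probe sets. Probe sets with 1 gene symbol in the platform annotation were kept, symbols were updated through the RefSeq table of GRCr8, and each of 14218 genes was represented by its brightest probe set over all arrays.

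A linear model with 4 groups (compound by time) was fitted to the 24 arrays with limma 3.58.1 in R 4.3.3, with 20 residual degrees of freedom and its default prior. Contrasts were idarubicin minus control at each time, their difference, their mean, and control at 1 d minus control at 0.67 d. Benjamini-Hochberg adjustment ran over all genes. Calls needed an adjusted p of 0.01 and a 1.5-fold change, the bounds of the study's methods. The 3 anthracyclines were fitted together on 36 arrays. Intervals cover 95%, and the number of arrays limits the precision. Figures were drawn with matplotlib 3.10.9.

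The rule for named genes took up to 15 genes in each direction for the difference, 6 in each direction at each time, 4 in each direction for the controls and for each pair of compounds, 2 of each list, and any measured gene of the p53 list. All remaining called differences were named too. The members and the 39 lists were chosen with earlier results of these data known. On simulated data with 50 genes changed by each of 4 folds, the difference between the times was recovered for 16% of genes at 1.5-fold, 82% at 2-fold, 90% at 3-fold and 96% at 4-fold, with 1 false call among 14218 genes. The simulated noise was independent between arrays, without the residual correlations seen here. These rates may therefore not hold for the real arrays. Alternatives covered the test, the bounds, the scaling, the probe sets, the lowest share of genes, the control sets, terms for hybridization, extraction and culture day, the replicate number, and each array left out in turn. Those without the 4 arrays that stood apart, or with a term for them, were chosen after seeing the data.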

Additional observations from a re-analysis of the deposited data

Results flagged for a closer look

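The idarubicin effect differed between 1 d and 0.67 d by limma for 25 genes, and the difference of each on the log2 scale is given here. Below 0 were Morc4 (-1.74), Shisal2b (-1.57), Dbp (-1.48), Slc25a29 (-1.36), Grhl3 (-1.32), Itpka (-1.31), Tyro3 (-1.27), Pard6g (-1.22), Naif1 (-1.21), Dram1 (-1.16), Hopx (-1.10), Col27a1 (-1.08), Acbd4 (-1.04), Map3k20 (-1.04), Mxd1 (-0.99), Rassf7 (-0.94), Celf4 (-0.92), Tbc1d8 (-0.83), Rfng (-0.81), Nxn (-0.79) and Poglut1 (-0.63). Above 0 were Zik1 (0.90), Tmem237 (0.84), Bpgm (0.78) and Ftx (0.73). The change of effect with time in Pard6g also differed between idarubicin and daunorubicin, by -1.66.

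A single control array lay far from the other 8 of its group in 8 of 84 groups of 9 controls, over 42 genes. The bound used would pass about 1 in 20 groups of independent normal values. The 84 groups are the same control arrays seen in many genes, and the genes were named from these arrays. The count can therefore not be set against that rate. In 6 of the 8 groups the single array was the control of culture day 19. Its log2 levels were 5.37 at 1 d and 5.31 at 0.67 d for Ankrd1, a target of YAP, and 8.82 at 1 d and 8.85 at 0.67 d for Tagln, each the lowest of its group. It was also the lowest 1 d control for Col27a1 (5.02) and Hopx (3.45). The remaining cases were Celf4 at 0.67 d, with 3.88 in the control of culture day 20, and Rfng at 0.67 d, with 7.31 in the control of culture day 17, again the lowest of their groups.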

How the results depend on the processing

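The 25 genes were called on these arrays, so a kept direction is a description. With the median over probe sets 7 lost the call, and Tmem237 had -0.0692 (limma adjusted p = 0.983). In the 39 other settings with both groups and all 25 genes 0 reversed, the 21 genes below 0 had medians between -1.18 and -1.03 and the 4 above 0 between 0.73 and 0.88. Settings that change only the test or the bounds leave the differences as they were, so no sign could change there. Without the dimmest genes 17 of the 25 had a value. The count of 25 became 75 at an adjusted p of 0.05, 14 at 2-fold, 16 without the dimmest genes (a share of 0.3333), 9 with extraction day as a fixed block and 64 with a term for the 4 arrays that stood apart. It was 0 with either set of controls alone, with hybridization day as a fixed block, or from the idarubicin arrays without controls (limma, 961 at an unadjusted p under 0.05 in the last). With 1 array left out it ran between 7 and 40, with 7 and 8 without a replicate 1 at 1 d, 16 without replicate 2 at 0.67 d and 40 without replicate 2 at 1 d. The replicate block gave 37, which included all 25. No source says that a replicate number marks a pair, and residuals correlated above 0.1 for 29 of 46 pairs with equal numbers. Among the idarubicin arrays they did so for 5 of 5 pairs with equal numbers (0.255 to 0.748) and 0 of 4 with other numbers (-0.596 to -0.466).

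The count at 1 d became 475 at 2-fold, 2187 without a bound on fold and 902 with the controls that also name Daunorubicin, and ran between 992 and 1510 with 1 array left out. The count at 0.67 d became 732 at 2-fold and 3032 without a bound on fold, and ran between 1376 and 2022. The single gene of the controls became 0 with the ordinary linear model test, the 2-fold bound or either set of controls, 2 at an adjusted p of 0.05, 7 and 3 with hybridization day as a fixed and a random term, 14 with extraction day, 17 with culture day as a random term, and 9 and 10 without the 4 arrays or with a term for them (0 to 2 with 1 array left out). The single gene against daunorubicin became 0 with the ordinary linear model test and with hybridization or extraction day as a block, and 2 at an adjusted p of 0.05 or with array medians subtracted (0 to 2 with 1 array left out). The counts against doxorubicin were 0 throughout, with 338 to 1017 genes at an unadjusted p under 0.05 in limma. The causes of these changes were not tested. Some of the alternatives also used fewer arrays or genes.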

Other observations

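A few genes of metabolism and growth control outside the account above were called at 1 or both times, and none had a called difference between the times. Cat, the catalase of peroxisomes, had an effect of 0.60 at 1 d and 0.08 at 0.67 d, and was called at 1 d. Cpt1a, which commits fatty acids to oxidation in mitochondria, rose at both times, with 1.28 at 1 d and 0.79 at 0.67 d. Cyp1a1, the AhR-induced P450, had 2.58 at 1 d and 1.35 at 0.67 d, called at 1 d, in a gene whose controls spread widely, with 4.94 to 8.71 (median 7.14) at 1 d and 5.18 to 9.79 (median 8.05) at 0.67 d. Klf5, a Kruppel-like transcription factor, rose at both times with 1.99 at 1 d and 2.70 at 0.67 d. Gldc, of glycine breakdown, fell at both times with -1.47 at 1 d and -1.95 at 0.67 d.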
